A study of Rattus norvegicus with 6 samples.

Results

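Neuroendocrine cells make peptide hormones as long precursors that are cut, trimmed and stored in dense secretory granules. The genes described here are 10 members of that machinery, taken from the count table by their symbols: the convertases Pcsk1 and Pcsk2, their binding partners Pcsk1n and Scg5, the end-trimming enzymes Cpe and Pam, and the granins Chga, Chgb, Scg2 and Scg3. The table names 21553 genes, of which 13363 had enough counts to be tested, and all 10 were among these. RNA was sequenced from INS-1, an insulin-secreting rat insulinoma line, in 3 libraries labelled INS-MOCK (genotype wild type) and 3 labelled INS-SMA (genotype SMA overexpression), into which a lentivirus brought the α-SMA gene (ACTA2, smooth muscle actin). All were grown in RPMI medium with fetal bovine serum. The labels do not say whether INS-MOCK cells received a lentivirus, which promoter drives the transgene, or whether either line is 1 clone. The design text calls the 3 libraries of a group biological replicates and does not say whether they are separate transductions, so p-values measure the spread between these libraries only.

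As background, the convertases encoded by Pcsk1 and Pcsk2 cut prohormones such as proinsulin after pairs of basic residues, and the carboxypeptidase encoded by Cpe then removes the basic residues left at the new ends. The monooxygenase encoded by Pam amidates peptides that end in glycine. Pcsk1n encodes proSAAS, an inhibitor of the Pcsk1 product, and Scg5 encodes a chaperone that the Pcsk2 product needs to mature. Granins are acidic proteins that condense in the trans-Golgi network and are packed with the hormone into granules.

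All 10 genes fell in INS-SMA, and in 10 of 10 the groups did not overlap. In the comparison of all genes, 27.0% of tested genes were called lower, 31.9% had INS-SMA values all below INS-MOCK, and 65.3% did not overlap in either direction. The median log2 fold change of the 10 genes was -2.36, beside 0.03 over all tested genes. At least 4-fold falls were seen in 7 of the 10, where 2.81% of tested genes were called with falls of that size. Scg3 (-2.06) was only just past that size, so the count depends on the setting. It fell short at -1.97 without normalisation factors, -1.999 with the most abundant row of each gene and -1.99 in annotated rows alone. Values are in CPM, counts scaled to a common library size after TMM scaling, a call is an adjusted p under 0.05 in edgeR's quasi-likelihood test over all genes, and SE is the standard error of a log2 fold change. In bulk RNA, fewer cells that express a gene and less of its RNA per cell cannot be told apart. The 10 genes together held 1.72%, 1.76% and 1.79% of the counts in named genes in the INS-MOCK libraries. In the INS-SMA libraries they held 0.345%, 0.347% and 0.394%. With human ACTA2 left out of the total, the INS-SMA shares were 0.367%, 0.367% and 0.413%.

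**Figure D1:**
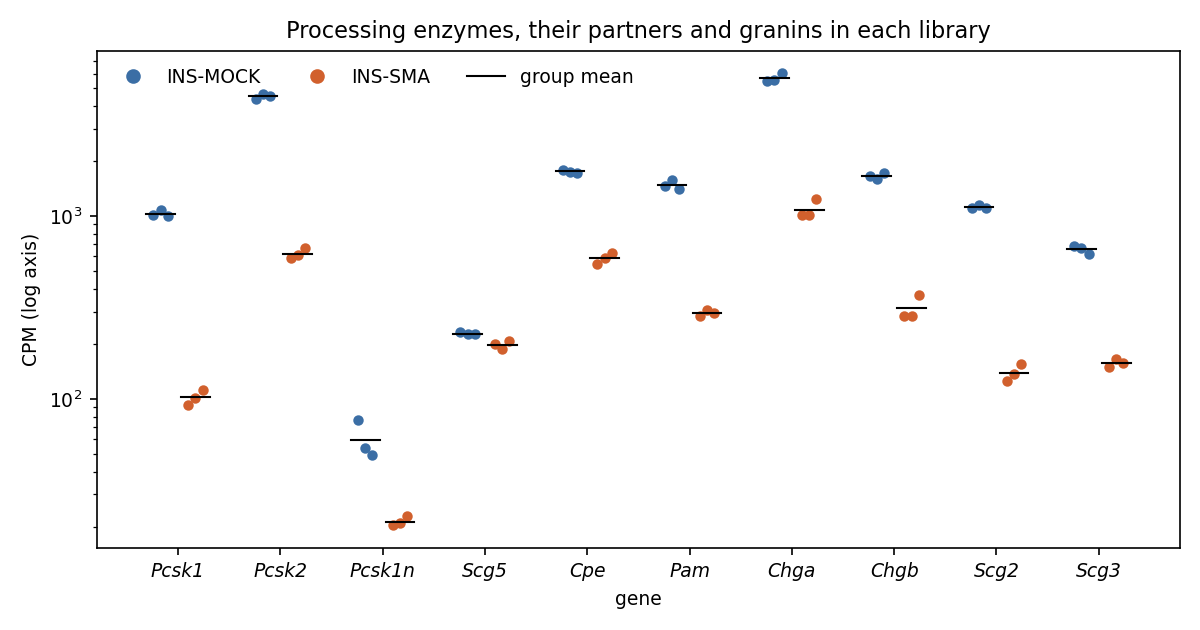
Level of each gene in CPM (log axis) in the 3 INS-MOCK and 3 INS-SMA libraries. Points are libraries and lines are group means. Every gene was lower in all INS-SMA libraries, with the widest gap in Pcsk1 and the narrowest in Scg5.

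The libraries held 24719503 to 39608609 counts. Human ACTA2, the transgene, was at 5.78 ± 1.27 CPM in INS-MOCK and 51072 ± 6224 CPM in INS-SMA (SD, n = 3 each), so each library matched its label. The beta cell markers chosen for the label check were all named in the table, and 6 of 8 fell while 0 rose, with a summed level of 27613 to 29851 CPM in INS-MOCK and 2255 to 3094 CPM in INS-SMA. Ins1 and Ins2 made up most of that sum, and the median log2 fold change of the 8 markers was -1.52. Mafa (-1.67) and Slc2a2 (-0.30) were not called and overlapped between groups. Among 6 immune markers 4 were named and their sum was 0.743 to 2.20 CPM in INS-MOCK and 2.52 to 3.31 CPM in INS-SMA. Of these Ptprc had 0 counts in INS-MOCK and 1.52 ± 0.37 CPM in INS-SMA. Its edgeR adjusted p was 0.00148, and 0.0526 with replicate number as a further term. Cd68 (0.57 CPM in INS-MOCK and 0.31 in INS-SMA) and Csf1r (0.92 and 1.09) were not called, and Cd14 was at most 0.078 CPM. Among 7 fibroblast markers 6 were named, with sums of 13.7 to 16.9 and 11.7 to 13.2 CPM. Most of this was Pdgfra, at 15.3 ± 1.77 and 8.24 ± 0.17 CPM (log2 fold change -0.89, edgeR adjusted p = 0.00236; 1.60 and 0.638 in annotated rows alone). Col1a2, Dcn and Lum had 0 counts in INS-MOCK and at most 0.47 CPM in INS-SMA, Col1a1 was at most 0.17 and 1.56 CPM, and Col3a1 was at 0.0698 ± 0.063 and 2.84 ± 0.79 CPM. Of 4 endothelial markers 3 were named, summing to at most 0.359 and 1.44 CPM, and of 4 acinar markers 1, summing to 0 and at most 0.184 CPM. Genes of mitochondrial DNA took 7.30% to 8.15% of named counts in INS-MOCK and 3.51% to 3.82% in INS-SMA. Without the mitochondrial genes, and separately without human ACTA2, all 10 genes were still called lower. Otherwise the part of these differences in the results was not tested.

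The log2 fold changes of the 10 genes ran from -3.33 (Pcsk1) to -0.20 (Scg5). Their promoters were searched for short motifs, and whether these bear on the falls was not tested. RefSeq windows (build GRCr8) matched 8 of the 10; Pcsk1 and Chga had no entry. The 250 bases before each start were searched on both strands for the short form of the cAMP response element, TGACG, which 18.2% of 33469 windows held and 6 of these 8 did. The full element TGACGTCA, which contains the short form on each strand, was in 1.59% of windows and among the 8 only in Scg2. These shares and those given below are over all windows, not matched to the 8 genes in base composition or expression. The sites are printed with 10 flanking bases where the window reaches, and capitals mark TGACG or its reverse complement CGTCA:
Scg2: gctgagccggTGACGTCAgcgaggaatg
Pcsk2: ggcgggcgcgCGTCAcccgggctgg
Cpe: atttggctttTGACGtgggtctgag
Pam: gaatgatgacTGACGcgggtctgcg
Scg3: gctgggtcgcTGACGccatcctcac
Scg5: cggagggaggTGACGca
The windows lie in Scg2 at chr9:88256972-88256999 (minus strand), Pcsk2 at chr3:151333871-151333895 (plus strand), Cpe at chr16:29796524-29796548 (plus strand), Pam at chr9:105570253-105570277 (plus strand), Scg3 at chr8:85322539-85322563 (minus strand), Scg5 at chr3:121042796-121042812 (minus strand). The start used for Scg2, Pam and Scg5 lies inside the full span of the RefSeq gene. The printed Scg5 site ends at the base before the start. Scg5 had the smallest fall of the 10 and also holds the short form.

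The whole upstream stretches of Pcsk2 (chr3:151333688-151333937, plus strand) and Cpe (chr16:29796457-29796706, plus strand) are shown as the enzyme genes whose windows held both the short form and a GC box. Capitals mark the GC box GGGCGG and TGACG on either strand:
Pcsk2: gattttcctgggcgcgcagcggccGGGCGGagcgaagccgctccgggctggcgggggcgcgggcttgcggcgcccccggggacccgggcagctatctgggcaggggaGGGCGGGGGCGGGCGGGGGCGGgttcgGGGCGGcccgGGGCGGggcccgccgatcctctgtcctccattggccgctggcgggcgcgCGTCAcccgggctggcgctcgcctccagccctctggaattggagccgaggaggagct
Cpe: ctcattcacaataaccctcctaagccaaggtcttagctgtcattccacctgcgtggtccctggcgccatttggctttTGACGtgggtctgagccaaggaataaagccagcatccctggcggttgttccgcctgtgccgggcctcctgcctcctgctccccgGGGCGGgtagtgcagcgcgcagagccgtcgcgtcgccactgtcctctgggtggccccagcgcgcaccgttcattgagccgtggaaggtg
Pcsk2 held 7 GC boxes, some overlapping each other, and 0.347% of all windows held as many. Cpe held 1. Pcsk2 changed by -2.86 and Cpe by -1.58. Pcsk1n, Chgb and Scg5 held 1 each and changed by -1.48, -2.40 and -0.20. Scg2, Pam and Scg3 held none and changed by -3.02, -2.33 and -2.06. At least 1 GC box was in 5 of the 8 windows and in 30.5% of all. E-boxes (CANNTG) were in 6 of the 8 and in 65.5% of all. None of the 8 held TATAAA, the C/EBP-ATF composite TGATGCAA or the core of the interferon-stimulated response element, which 12.9%, 0.693% and 3.41% of all windows held. A match describes letters in a window and not a bound site.

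The convertase genes had the deepest falls among the enzymes. Pcsk1 (ENSRNOG00000011107, chromosome 2, 91450162 to 91497091, minus strand, coordinates of the deposited table, whose notes name rn6 as the only rat build) stood at 1006, 1084 and 1001 CPM in INS-MOCK and at 92.6, 101.5 and 112 CPM in INS-SMA. The INS-SMA level was 9.92% of the INS-MOCK level (log2 fold change -3.33, SE 0.09, edgeR adjusted p = 6.17e-06), and 0.741% of tested genes had a lower value. Pcsk2 (ENSRNOG00000005438, chromosome 3, 137618898 to 137925605, plus strand) stood at 4362, 4610 and 4547 CPM in INS-MOCK and at 589, 611 and 668 CPM in INS-SMA (log2 fold change -2.86, SE 0.06, adjusted p = 4.23e-06). Both genes had 1 row in the table, and in each the libraries of a group lay close together beside the gap between groups.

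The partners of the convertases fell less. Pcsk1n (ENSRNOG00000007112, chromosome X, 15324400 to 15327684, minus strand) stood at 76.2, 53.5 and 49.3 CPM in INS-MOCK and at 20.4, 20.8 and 22.8 CPM in INS-SMA. INS-MOCK replicate 1 was higher than the other INS-MOCK libraries. By edgeR it changed by -1.48 (SE 0.18, adjusted p = 0.00111), and by -1.26 without that library. Scg5 (ENSRNOG00000007542, chromosome 3, 105235050 to 105279462, minus strand) stood at 231, 225 and 225 CPM in INS-MOCK and at 199.5, 188 and 207 CPM in INS-SMA. Its groups did not overlap, but its change of -0.20 (log2, SE 0.04, adjusted p = 0.0118) was the smallest of the 10, and 41.2% of tested genes had a lower value. Without normalisation factors its call was lost (-0.10, edgeR adjusted p = 0.115; the range over all settings was 0.000523 to 0.115). In annotated transcript rows alone it was at -0.61.

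The enzymes that finish the peptide ends followed. Cpe (ENSRNOG00000043387, chromosome 16, 26906716 to 27014813, plus strand) went from 1786, 1738 and 1726 CPM in INS-MOCK to 543, 589.7 and 624 CPM in INS-SMA (log2 fold change -1.58, SE 0.06, edgeR adjusted p = 1.44e-05). Pam (ENSRNOG00000033280, chromosome 9, 111028575 to 111177602, plus strand) went from 1464, 1569 and 1409 CPM to 284, 306 and 295 CPM (log2 fold change -2.33, SE 0.06, adjusted p = 5.04e-06). INS-SMA cells thus held 33.5% of the INS-MOCK level of Cpe and 19.9% of that of Pam.

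**Figure D2:**
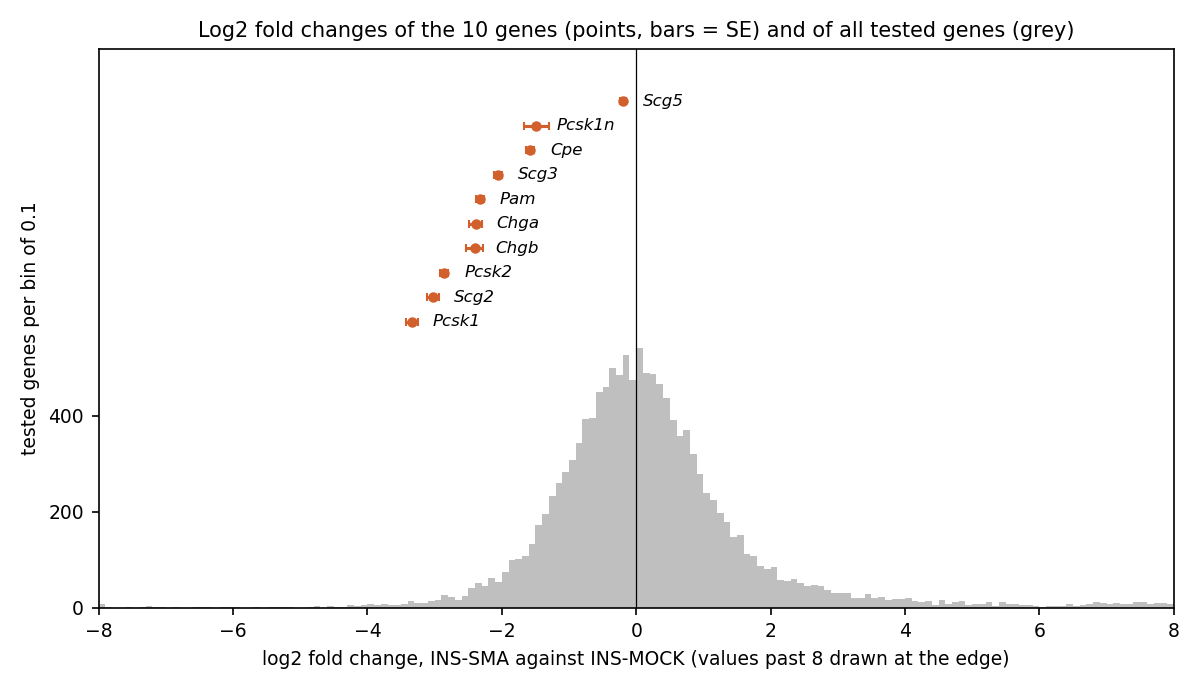
Log2 fold change (INS-SMA against INS-MOCK) of the 10 genes as points with SE bars, over a grey histogram of all 13363 tested genes in bins of 0.1. The points run from -3.33 (Pcsk1) to -0.20 (Scg5), and the grey distribution has its median at 0.03.

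The granin genes fell by more than Cpe. Chga (ENSRNOG00000052549, chromosome 6, 126434226 to 126445568, plus strand), which encodes chromogranin A, stood at 5446, 5542 and 6015 CPM in INS-MOCK and at 1010, 1008 and 1232 CPM in INS-SMA (log2 fold change -2.39, SE 0.10, edgeR adjusted p = 1.98e-05). Chgb (ENSRNOG00000021269, chromosome 3, 125428260 to 125441594, plus strand), which encodes chromogranin B, stood at 1651, 1599 and 1713 CPM and at 283, 284 and 371 CPM (-2.40, SE 0.12, adjusted p = 3.82e-05). In both chromogranin genes INS-SMA replicate 3 was the highest of its group. Scg2 (ENSRNOG00000015055, chromosome 9, 85237458 to 85243001, minus strand), which encodes secretogranin II, the precursor of secretoneurin, stood at 1100.3, 1153 and 1111 CPM and at 125, 136 and 154 CPM (-3.02, SE 0.09, adjusted p = 8.35e-06). Scg3 (ENSRNOG00000010784, chromosome 8, 82582352 to 82641536, minus strand), whose product binds chromogranin A and the granule membrane, stood at 684, 667 and 616 CPM and at 148, 166 and 158 CPM (-2.06, SE 0.06, adjusted p = 9.23e-06). Scg2 had the deepest and Scg3 the shallowest fall of these 4.

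The spread within groups was small beside these differences. The coefficient of variation over 3 libraries was 1.40% (Scg5) to 5.49% (Pam) in INS-MOCK, apart from Pcsk1n at 24.3%. In INS-SMA it was 3.86% (Pam) to 16.3% (Chgb).

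How the genes moved against each other was read from the ratio of 2 genes' counts within a library, which does not depend on library size. A ratio's size depends on transcript lengths, which the table does not give, so only its change between groups is described. Where the mix of a gene's transcript rows shifts between groups, as in Scg5 below, the change can depend on lengths too. The change was computed for 8 pairs, with an exact two-sided permutation test over libraries whose smallest possible p is 0.1. For Pcsk2 against its chaperone gene Scg5, the log2 ratio was 4.24, 4.36 and 4.34 in INS-MOCK and 1.56, 1.70 and 1.69 in INS-SMA, a difference of -2.66, so the ratio was 6.32-fold lower. It was -2.17 in annotated transcript rows alone and with the most abundant row of each gene, which is smaller in size than the 2.36 of Cpe against Ins1, so the order of these pairs depends on the rows used. Pcsk1 against its inhibitor gene Pcsk1n went from 3.72, 4.34 and 4.34 to 2.18, 2.28 and 2.30, a difference of -1.88 (-2.09 without INS-MOCK replicate 1). The transcripts of both convertases thus fell further than those of their partners, with no overlap between groups. How often the ratios of other gene pairs do not overlap was not computed. Of single tested genes, 65.3% did not overlap in either direction.

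The other pairs changed less or in the opposite direction. Pcsk1 against Pcsk2 differed by -0.48 and Scg2 against Scg3 by -0.97, again without overlap. Cpe against Pam differed by 0.75. Ins1, which encodes proinsulin, the substrate, fell by 3.93 on the log2 scale, so Pcsk1 against Ins1 differed by 0.60 and Cpe against Ins1 by 2.36, a 5.12-fold higher ratio. Reads of Ins1 could be split with its near-identical copy Ins2, so its count is uncertain. For these 5 pairs and the pairs of the convertases with their partners, the exact permutation p was 0.1 (0.114 adjusted over 8 pairs). Chga against Chgb had a mean log2 ratio of 1.78 ± 0.05 in INS-MOCK and 1.80 ± 0.06 in INS-SMA (SD, n = 3, exact permutation p = 0.5, also adjusted). The groups overlapped, and the difference of 0.02 was smaller than the spread between libraries. With the most abundant row of each gene it was 0.29 (exact permutation p = 0.8) and with annotated rows alone -0.06 (p = 0.9). This does not show that the ratio was the same.

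**Figure D3:**
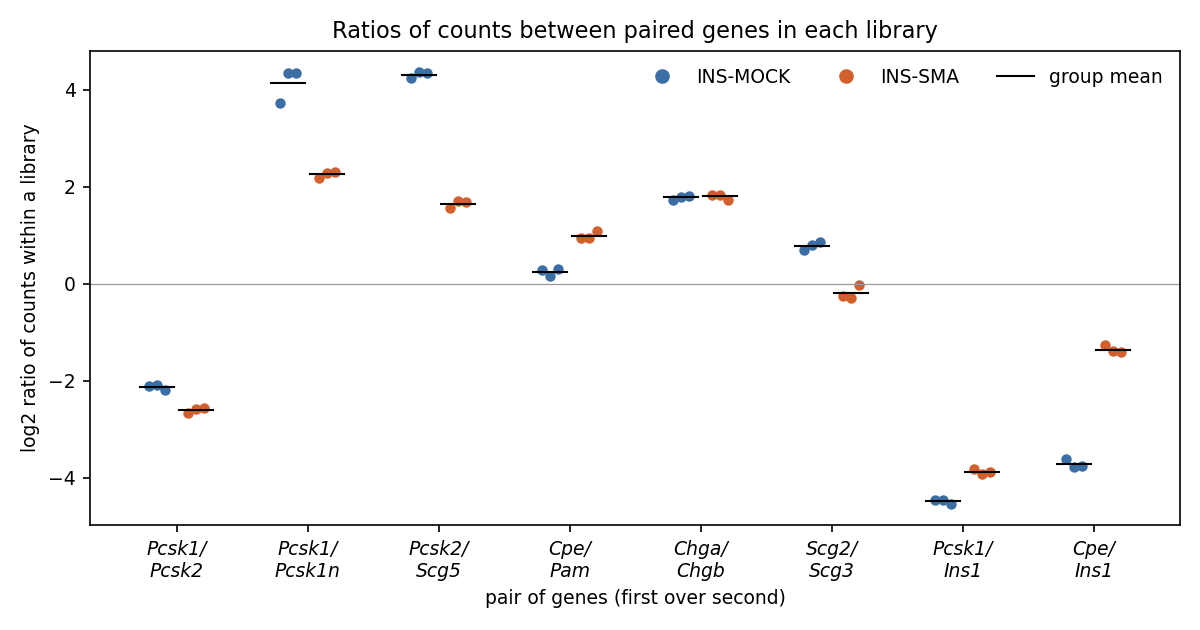
Log2 ratio of the counts of 2 genes within each library, for 8 pairs. Points are libraries and lines are group means. The groups stand apart in 7 pairs and overlap in Chga/Chgb, and the mean of Pcsk2/Scg5 goes from 4.31 to 1.65. The share of other gene pairs that stand apart was not computed.

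The table splits 4 of the genes into several transcript rows, with annotated Ensembl transcripts and transcripts that the authors assembled and assigned to the gene. Tested one by one among 23402 rows, 13 of the 17 rows of the 10 genes fell and 1 rose, where 14.6% of rows were called lower and 15.6% higher. The row that rose belonged to Scg5. Assembled row ENSRNOG00000007542.3 had 67, 55 and 21 counts in INS-MOCK and 729, 950 and 1282 in INS-SMA (log2 fold change 4.46, SE 0.49, edgeR adjusted p = 0.00234). The annotated Scg5 row ENSRNOT00000010679 had 4264, 3842 and 3938 counts and 1616, 2403 and 2926 counts (log2 fold change -0.71, SE 0.08, adjusted p = 0.00262). The small change of the Scg5 sum thus combined a row that fell and a row that rose.

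As a share of all Scg5 counts, the annotated row went from 75.9% ± 0.97 to 54.1% ± 5.07 and the assembled row from 0.898% ± 0.44 to 23.1% ± 1.08 (SD, n = 3; exact two-sided permutation p = 0.1 for each, the smallest possible). The other assembled rows of Scg5 did not pass the test. Row ENSRNOG00000007542.4 held 18.4%, 18.1% and 21.6% of Scg5 counts in INS-MOCK and 27.7%, 7.37% and 8.20% in INS-SMA, and row ENSRNOG00000007542.1 held 3.28% to 4.28% and then 1.66%, 10.7% and 12.7%. INS-SMA replicate 1 differed from the other INS-SMA libraries in both. The sources used here do not give the exons of the assembled rows, so which Scg5 transcript the rising row stands for is not known.

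In Chgb both rows fell (-2.53 for the assembled and -2.33 for the annotated row, edgeR adjusted p = 0.0127 and 0.00114). The assembled row had 1123, 3207 and 5990 counts in the INS-SMA libraries, which was 23.9%, 51.9% and 62.8% of Chgb, against 49.7% to 53.6% in INS-MOCK. The share difference of -5.05 percentage points turned to 6.09 without INS-SMA replicate 1, while the Chgb sum was at -2.34 without that library. In Scg2 the assembled row held 51.7% ± 0.34 of the counts in INS-MOCK and 49.6% ± 0.54 in INS-SMA (SD, n = 3), a difference of -2.09 percentage points. The groups did not overlap (exact two-sided permutation p = 0.1, the smallest possible), and the shift was smaller than that of the Scg5 rows. In Pam the annotated row ENSRNOT00000056457 held 95.5% to 99.4% of the counts in each library.

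**Figure D4:**
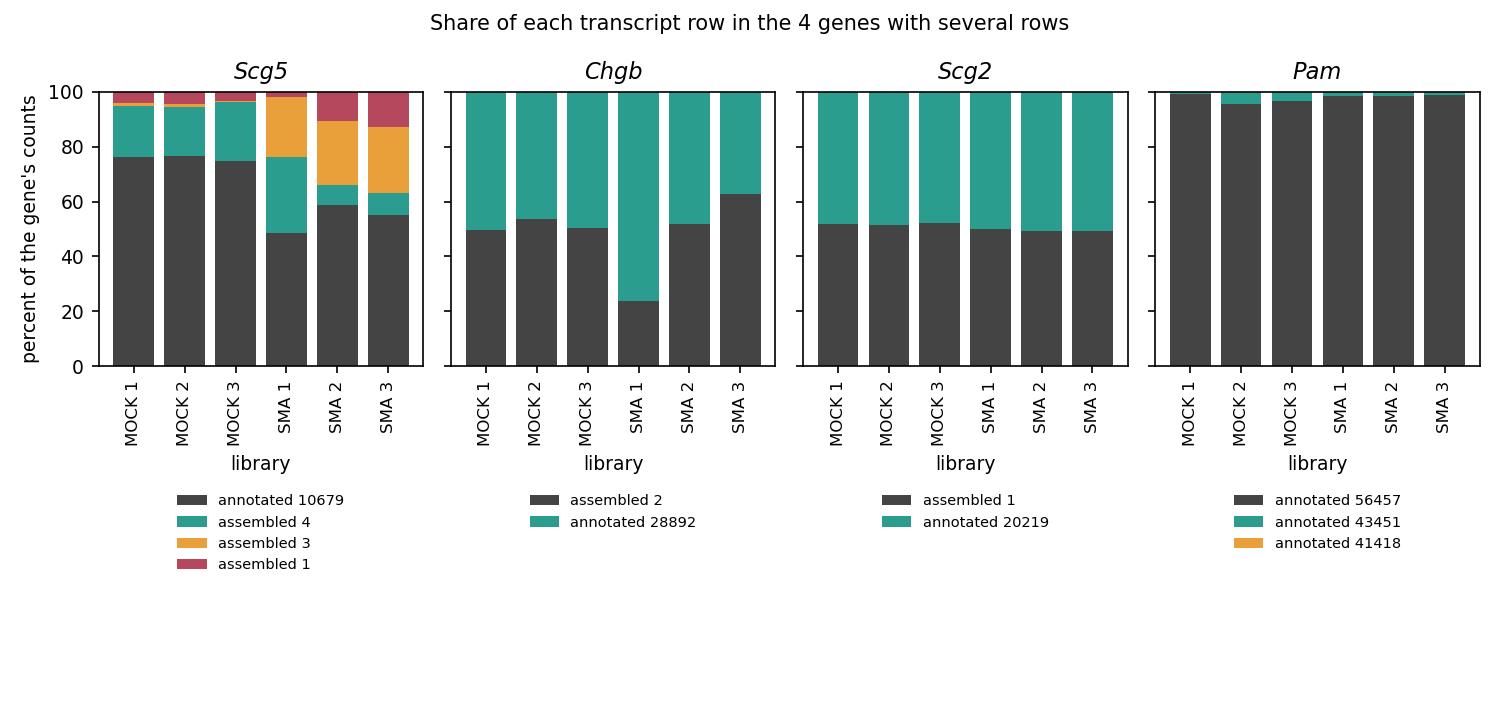
Percent of a gene's counts in each of its transcript rows, per library (MOCK = INS-MOCK, SMA = INS-SMA), for the 4 genes with several rows. Legends give the last digits of the annotated transcript or the number of the assembled row. Assembled row 3 of Scg5 takes 22.0% to 24.1% in INS-SMA and at most 1.2% in INS-MOCK. The assembled Chgb row takes 23.9%, 51.9% and 62.8% in INS-SMA replicates 1, 2 and 3.

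Other genes of the regulated secretory pathway were followed in a list of 48, of which 45 were named and 41 tested. Of these 20 fell and 4 rose (median log2 fold change -0.51), beside 27.0% called lower and 28.1% called higher over all tested genes. The other convertases, which cut precursors in the Golgi, at the cell surface or in other tissues, changed little or in both directions. Of 6 tested, Pcsk6 (-0.28) and Mbtps1 (-0.18) fell, Pcsk7 (0.59) and Pcsk4 (1.42) rose, and Furin (0.28) and Pcsk5 (0.19) did not pass. These calls were lost under some settings. In edgeR's test of annotated rows alone Pcsk7 was at 0.10 (adjusted p = 0.756) and Pcsk6 at -0.50 (0.115). The most abundant row of Pcsk6 was at 0.71 (0.767). Pcsk4 was low, at 0.61 ± 0.22 CPM in INS-MOCK and 1.64 ± 0.14 CPM in INS-SMA, and was not tested under the strict low-count filter. Pcsk4 was at an edgeR adjusted p of 0.0501 without INS-MOCK replicate 2 and at 0.0533 with the replicate block. Mbtps1 was at 0.0619 to 0.106 without INS-MOCK replicate 2 or 3 or INS-SMA replicate 1 or 2. Its call was also lost in other settings. Among these were no normalisation factors (edgeR adjusted p = 0.237), no low-count filter (0.0609) and annotated rows alone (0.103).

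Among 10 tested carboxypeptidases and other enzymes of peptide ends, 6 fell and 0 rose. Cyb561, which encodes the granule membrane cytochrome that supplies electrons to the Pam product, went from 140.5 ± 13.3 to 40.4 ± 1.11 CPM (-1.80; -2.21 and edgeR adjusted p = 0.121 in annotated rows alone). Cpn1, a carboxypeptidase N subunit, (-0.94) and Ctsl, cathepsin L (-0.69), also fell. Cpd, which encodes a carboxypeptidase of the trans-Golgi network, was not called (1.29, SE 1.34), with 4.63, 0.40 and 30.9 CPM in INS-MOCK and 47.4, 23.2 and 17.3 CPM in INS-SMA.

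Of 14 tested genes of the granule membrane and of granule formation, 6 fell and 1 rose. Slc30a8, the granule zinc transporter, went from 913 ± 9.36 to 211.5 ± 9.73 CPM (-2.11). Ptprn, a granule membrane phosphatase-like protein, went from 754 ± 6.94 to 204 ± 10.4 CPM (-1.89), and Atp6ap1, an accessory subunit of the proton pump that acidifies granules, from 533 ± 14 to 150 ± 5.31 CPM (-1.83). The member that rose was Eipr1, whose product interacts with a tethering complex, from 44.5 ± 1.60 to 85.8 ± 1.90 CPM (0.95, edgeR adjusted p = 4.17e-05). The further granin-like gene Vgf was low in both groups, at 2.42 ± 0.47 and 2.25 ± 0.93 CPM, and was not called.

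Of 11 tested genes of peptide cargo, 6 fell and 1 rose. Npy, neuropeptide Y, went from 211 ± 2.52 to 29.3 ± 0.94 CPM (-2.84) and Gcg, the glucagon precursor, from 714 ± 30.6 to 27.0 ± 2.88 CPM (-4.72). Ins1 (-3.93) and Ins2 (-4.29) fell too. Cck, the cholecystokinin precursor, rose from 2.66 ± 1.35 to 34.1 ± 6.84 CPM (3.67, edgeR adjusted p = 7.97e-04).

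**Figure D5:**
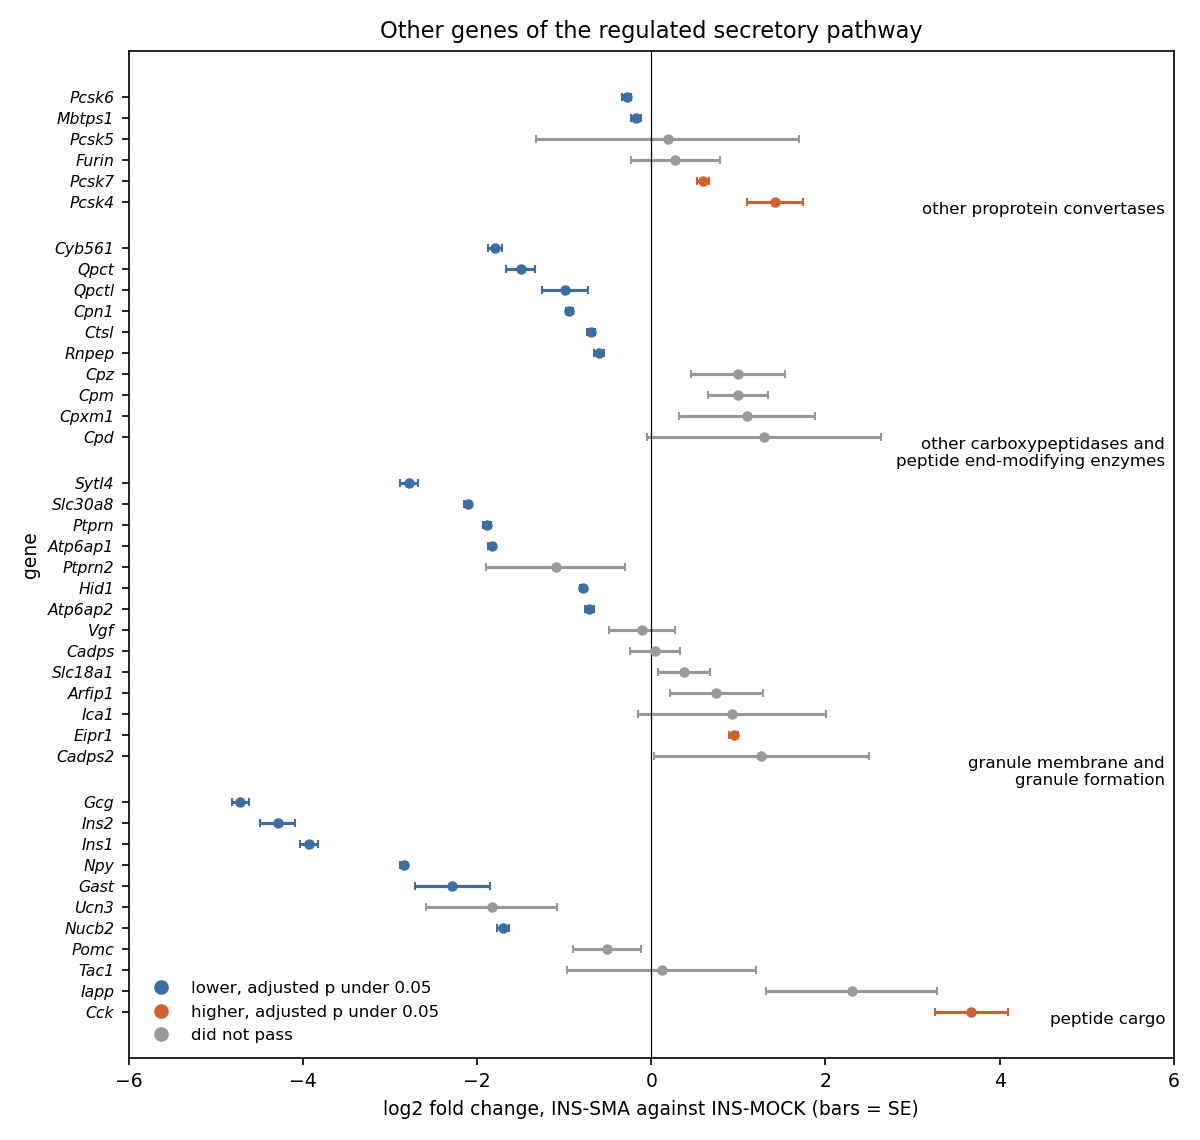
Log2 fold change (INS-SMA against INS-MOCK) with SE bars for the 41 tested genes of the pathway list, in 4 groups. Blue points were called lower, orange points higher and grey points did not pass. The called genes of the peptide-end group all lie below 0, and those of the convertase group lie on both sides.

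The 5 genes whose levels over the 6 libraries lay nearest to the median profile of the 10 genes were Resp18, Creld2, Manf, Ctbs and Rpn2. Likeness was the Euclidean distance between centred log2(CPM + 0.5) profiles over 6 libraries, among 6604 other genes with a mean of at least 20 CPM, and it was 0.123 to 0.154 for these 5. Within the 10, Chga lay nearest to that profile (0.148) and Scg5 farthest (2.60). Resp18 went from 331 ± 11.3 to 62.3 ± 5.81 CPM and Rpn2 from 1270.5 ± 31.2 to 274 ± 17.9 CPM. The measure is dominated by the difference between the groups and describes size and direction only.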

How the data were processed

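The deposited table, made by the authors, gives unnormalised read counts for each transcript row in each of the 6 libraries. HISAT2, HISAT and DESeq2, and the builds hg19 and rn6 without roles, come from the submitters' processing notes. The sources used here do not give the counting program, strand setting or annotation. Without a known strand setting, reads of overlapping antisense genes cannot be told apart. Of 101905 rows, 66301 name no gene and carry no coordinates; they held 32.7% to 36.7% of a library's counts and entered neither library sizes nor tests, so reads of the 10 genes in such rows are missing here.

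Counts were summed per gene. Genes were filtered with filterByExpr, scaled with TMM and tested with edgeR 4.0.16 (glmQLFit, glmQLFTest; R 4.3.3), with group as the only term and Benjamini-Hochberg adjustment over 13363 genes. SE is the size of the log2 fold change divided by the square root of F. Ratios had 0.5 counts added to each gene. Permutation tests used scipy 1.17.1. DESeq2 1.42.0 was among 19 alternative settings. The edgeR and DESeq2 steps were also run on simulated counts with known changes in few genes, evenly up and down. In these data far more genes changed, so that run does not show how the scaling performs here. Libraries held 15851326 to 25028291 (INS-SMA) and 23154106 to 25075476 (INS-MOCK) counts in tested genes. A floor of 3 counts is 0.117 to 0.180 CPM, and covers counting error only.

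The members and lists were chosen with earlier results of these data known. Named by rule were the 10 members, ACTA2, Ins1, Ins2, the 3 called genes with the smallest adjusted p in each group of the pathway list, and the 5 nearest profiles. Other genes, and the single rows described, were chosen after their values were seen.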

Additional observations from a re-analysis of the deposited data

How the results depend on the processing

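Over 19 alternative settings, all 10 genes kept their negative direction, and 10 were called lower in each setting except without normalisation factors, where 9 were (Scg5 lost its call). The settings were DESeq2, other scalings and filters, other uses of the rows, and each library left out. Mitochondrial genes left out, human ACTA2 left out and a replicate block were settings too. The count of called genes of the pathway list was 14 to 21 lower and 3 to 6 higher. The difference of Chga against Chgb turned to -0.0555 in annotated transcript rows alone, a setting chosen after seeing the data, and was 0.286 with the most abundant row of each gene. It was -0.0036 to 0.0574 when each library was left out, and the other 7 pairs kept their direction. The share difference of a minor Pam row (0.06 percentage points) was -0.101 to 0.154 when each library was left out, negative without INS-SMA replicate 2. Those of the Chgb rows ranged from -13.4 to 6.09 and from -6.09 to 13.4, and turned without INS-SMA replicate 1. The cause was not tested.

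No pairing by replicate number was detected: same-numbered libraries had correlations of -0.029, -0.001 and -0.004 in their deviations from group means over 6614 genes. Libraries of unlike number had -0.021 to 0.025. This does not show that the libraries were unpaired. With the replicate block, 10 of the 10 genes fell, and 20 pathway genes fell and 3 rose. Adding overlapping unnamed rows was not run, since these rows carry no coordinates.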
